A study of Mus musculus with 102 samples.

Results

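TTKO cells are mouse embryonic stem cells without Tet1, Tet2 and Tet3, and the comparison here is between TTKO cells 13 days after transduction with Cre protein and TTKO cells that received the Cre dialysis buffer alone, called mock. It was read by amplicon bisulfite sequencing in 6 of the 102 samples of the study, 3 Cre and 3 mock replicates, and all CpGs with a methylation level in each of the 6 samples were taken, which are 401 of 405. The missing 4 CpGs all lie in an amplicon near Gsx1 on chromosome 5, which had too few reads in mock replicate 1. The cells came from a line with a C57BL6/J background that is homozygous for floxed Dnmt3a and Dnmt3b, in which the TET genes had been inactivated with CRISPR, so both groups lack TET proteins. The labels call the genotype Dnmt3a/3b catalytic dead after Cre and Dnmt3a/3b intact in the mock. The TTKO line is a single clone, and the study's methods describe some cells that kept a functional Dnmt3 allele after Cre. The amplicons do not cover the floxed exons, so the excision could not be read from these data. The study's methods call the replicates of its experiments biological, and the labels do not say whether they were separate cultures or transductions, so p-values measure only the spread between these samples.

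DNMT3A and DNMT3B place methyl groups on unmethylated CpGs (de novo methylation), while DNMT1 copies the methylation of the parental strand at replication. TET enzymes oxidise methylated cytosines and thereby start active demethylation, so that in cells without them methylation can leave only passively, as strands are copied. Low-methylated regions (LMRs) are distal elements occupied by transcription factors such as CTCF, which organises chromatin loops, and REST, which represses neuronal genes outside neurons. Unmethylated regions (UMRs) are mostly CpG-rich promoters, and fully methylated regions (FMRs) are the rest of the genome.

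The following stretches of the mm9 sequence (forward strand, from the first to the last CpG measured and the bases beside them) belong to the amplicons on which the results turn, with the CpGs measured in capitals. They comprise the amplicon with the widest range of losses among its CpGs, a CTCF amplicon and a pair of REST amplicons. Others are the amplicons of the largest loss in an ES-specific LMR and in a fully methylated region. One amplicon stayed almost fully methylated, and the last holds the CpGs whose Cre effect differed between TTKO and wild-type cells on the odds scale.
LMR near 3830408C21Rik, chr13:107863460-107863631: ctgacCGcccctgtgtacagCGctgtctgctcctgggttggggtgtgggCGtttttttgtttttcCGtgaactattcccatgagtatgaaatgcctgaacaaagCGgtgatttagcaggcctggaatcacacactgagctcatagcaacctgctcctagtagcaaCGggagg
CTCF-bound LMR near Ipcef1, chr10:3270030-3270198: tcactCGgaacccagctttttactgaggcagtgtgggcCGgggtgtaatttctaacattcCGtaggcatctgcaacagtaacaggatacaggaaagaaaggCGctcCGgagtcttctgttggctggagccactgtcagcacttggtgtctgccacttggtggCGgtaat
REST-bound LMR near Slc29a4, chr5:143170685-143170931: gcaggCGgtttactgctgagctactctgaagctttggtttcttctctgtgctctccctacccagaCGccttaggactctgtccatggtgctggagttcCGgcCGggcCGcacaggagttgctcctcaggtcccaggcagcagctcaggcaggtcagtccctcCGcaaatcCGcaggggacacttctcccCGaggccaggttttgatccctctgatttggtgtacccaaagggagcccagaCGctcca
REST-bound LMR in an intron of Tssc1, chr12:29516080-29516216: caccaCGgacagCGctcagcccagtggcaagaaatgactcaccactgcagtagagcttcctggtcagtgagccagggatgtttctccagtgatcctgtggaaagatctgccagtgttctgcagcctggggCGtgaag
ES-specific LMR in an intron of Cacng7, chr7:3349935-3350195: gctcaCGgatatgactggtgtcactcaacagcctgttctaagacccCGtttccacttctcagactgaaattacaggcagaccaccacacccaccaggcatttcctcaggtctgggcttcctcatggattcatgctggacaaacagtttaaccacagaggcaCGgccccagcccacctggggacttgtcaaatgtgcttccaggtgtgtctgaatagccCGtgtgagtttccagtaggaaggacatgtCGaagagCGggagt
FMR in an intron of Atp2b2, chr6:113705567-113705666: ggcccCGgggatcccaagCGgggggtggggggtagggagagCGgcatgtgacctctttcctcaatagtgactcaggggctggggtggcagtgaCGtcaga
ES-specific LMR in a coding exon of Zbtb20, chr16:43609649-43609840: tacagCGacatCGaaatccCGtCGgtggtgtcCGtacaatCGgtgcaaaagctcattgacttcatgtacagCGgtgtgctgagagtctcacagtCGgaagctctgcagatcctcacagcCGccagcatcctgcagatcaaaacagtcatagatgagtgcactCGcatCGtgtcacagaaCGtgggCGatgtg
NP-specific LMR near Gm10295, chr7:78616647-78616847: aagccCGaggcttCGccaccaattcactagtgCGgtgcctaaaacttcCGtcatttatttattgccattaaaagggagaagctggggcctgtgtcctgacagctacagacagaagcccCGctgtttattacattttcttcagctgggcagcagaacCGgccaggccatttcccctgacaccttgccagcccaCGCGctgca

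Between 2258032 and 2564490 reads lay on the 401 CpGs per sample, with a median coverage of 4054 to 4645 reads per CpG and a lowest coverage of 200 reads. At this depth counting error is small, and the replicates varied far more than it (median dispersion 62.4 times that of binomial sampling), so errors were taken from the replicates. PCR reads carry no molecular identifiers and are not independent molecules. The methylation level of a CpG is the share of reads with a cytosine that escaped conversion. Each CpG was tested with a quasi-binomial model of the methylated against the unmethylated reads, whose effect is a log2 odds ratio of Cre over mock, and a CpG was called when its Benjamini-Hochberg adjusted p was under 0.05.

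The mean methylation level over the 401 CpGs was 33.2%, 32.4% and 32.9% in the Cre replicates and 43.3%, 44.8% and 44.1% in the mock replicates. The groups did not overlap, and their means were 32.8% ± 0.398 and 44.1% ± 0.736 (SD, n = 3 each). The difference was -11.2 percentage points with an SE of 0.483 (exact permutation test, two-sided, p = 0.1, and 3 against 3 cannot go lower). Non-transduced cells at day 0 had a mean of 41.9% ± 0.506 (SD, n = 3), below the mock of day 13.

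Single CpGs moved one way. Of the 401 CpGs, 135 were called less methylated after Cre (33.7%) and 0 were called more methylated (0.0%; also 0 at an unadjusted p under 0.05 and 0 with limma on log2 odds). An unadjusted p under 0.05 was found at 191 CpGs. All Cre replicates lay below all mock replicates at 210 CpGs (52.4%), and at 0 CpGs were the groups separated the other way. The mean was lower after Cre at 362 CpGs and higher at 39. Without Cre replicate 2 the number of called CpGs was 88, the lowest when a replicate was left out. The median log2 odds ratio over all CpGs was -1.43, and the falls of called CpGs ranged from 3.28 to 47.7 percentage points. In counts simulated for these 401 CpGs, the model called 2.5% of 200 CpGs when their log2 odds ratio was set to -1 and 51.5% when it was set to -2, so a CpG without a call may still have changed. A fall of more than 20 percentage points was seen at 86 CpGs, of which 77 were called.

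**Figure D1:**
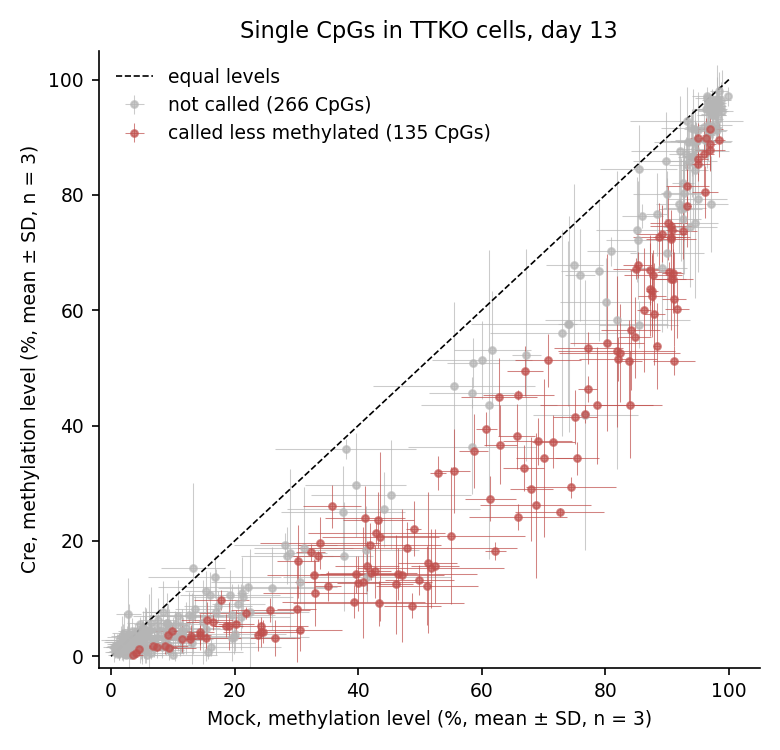
Methylation level of single CpGs in TTKO cells at day 13, mock on the horizontal and Cre on the vertical axis (percent, means with SD as bars, 3 replicates each), with the dashed line at equal levels. The 135 called CpGs all lie below the line, farthest from it at intermediate mock levels.

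The reads of all CpGs of an amplicon, summed, gave a call for 48 of 64 amplicons (75.0%), all less methylated after Cre. An unadjusted p under 0.05 was found for 50. Of the 16 amplicons without a call, 5 were unmethylated regions and 6 were REST-bound LMRs, classes with low levels in the mock. Only 4 amplicons without a call had a mean of at least 20% at day 0. These were the Zbtb20 amplicon, an amplicon in Traf3 and the NP-specific amplicons near Cadm1 and in Fbxl17.

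The labels of the region classes were checked in the mock, where the unmethylated class had a mean of 4.62% and the fully methylated class 91.7%, and where LMRs specific to ES cells had 53.0% against 93.7% in those specific to neuronal progenitors (NP). One of the ES-specific amplicons, in Zbtb20 (13 of the 60 CpGs), had 96.0% in the mock and so did not meet its label, and the other 47 CpGs of the class had 41.1%. The constitutive LMR near Prl5a1 (3 CpGs), with 94.1% in the mock and 82.4% in the mock of wild-type cells, did not meet its label either. In each of the 9 classes all Cre replicates were lower than all mock replicates (exact permutation p = 0.1 for each class, 0.1 after adjustment over the classes, and no smaller p can be had from 3 against 3).

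In percentage points, the largest fall of a class was that of the constitutive LMRs (low-methylated in both ES and NP cells) that the region list assigns to neither CTCF nor REST (binding was not measured). Their 13 amplicons had mean levels of 45.0%, 43.1% and 42.7% after Cre and 65.7%, 65.3% and 66.1% in the mock. This was a difference of -22.1 percentage points (SE 0.753), and 32 of their 59 CpGs were called (54.2%, beside 33.7% of all CpGs). CTCF-bound LMRs fell from 36.6% ± 1.82 in the mock to 18.8% ± 0.501 after Cre (SD, n = 3), with 13 of 23 CpGs called (56.5%). REST-bound LMRs had lower levels throughout, 20.6% ± 0.863 in the mock and 12.1% ± 0.457 after Cre, with 21 of 98 CpGs called (21.4%, below the share of all CpGs). All 5 CTCF amplicons, 12 of the 18 REST amplicons and 12 of the 13 other constitutive amplicons were called less methylated, beside 75.0% of all amplicons.

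ES-specific LMRs fell by 15.7 percentage points (SE 1.08), from 53.0% ± 1.73 to 37.3% ± 0.680, and 33 of 60 CpGs were called (55.0%, beside 33.7% of all CpGs). Without the Zbtb20 amplicon, an alternative chosen after seeing the data, the fall was 19.1 percentage points (SE 1.44), and 32 of 47 CpGs were called (68.1%). NP-specific LMRs, which are methylated in ES cells, fell by 8.26 percentage points (SE 0.910), from 93.7% ± 1.27 to 85.4% ± 0.933, and 11 of 39 CpGs were called (28.2%, near the share of all CpGs). The fully methylated regions had a difference of -18.8 percentage points (SE 1.48), from 91.7% ± 0.685 to 72.9% ± 2.47, with 13 of 22 CpGs called (59.1%). Their mock level was near that of the NP-specific LMRs, but their day 0 level was lower (86.6% against 90.8%). Against day 0 controls the differences were -13.7 percentage points at fully methylated regions, -5.39 at NP-specific and -14.3 at CTCF-bound LMRs. They were -17.9 at the other constitutive, -7.26 at REST-bound and -13.0 at ES-specific LMRs. The unmethylated class moved from 4.62% ± 1.20 to 2.51% ± 0.415, with 10 of 82 CpGs called (12.2%). The single methylated UMR (near Tuba3a, 6 CpGs) and the single methylated island (in AU022751, 12 CpGs) had 1 called CpG each.

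**Figure D2:**
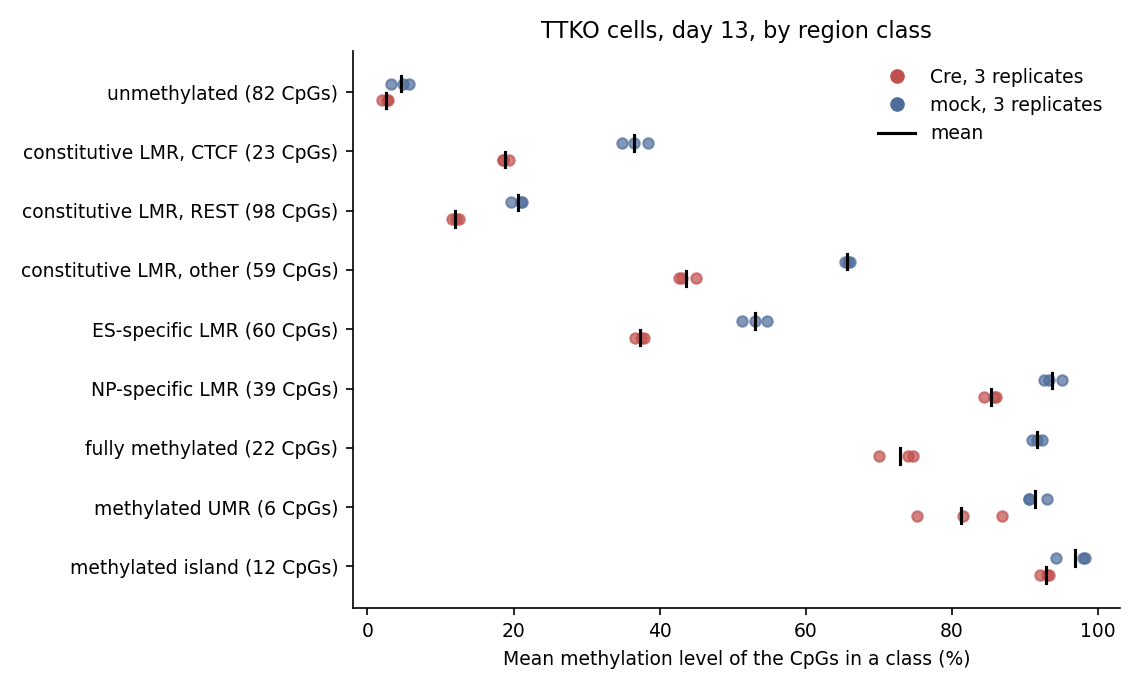
Mean methylation level (percent) of the CpGs of each region class in each TTKO sample of day 13, with Cre replicates, mock replicates and their means as vertical bars. The groups are apart in each class, by 22.1 percentage points in the constitutive LMRs without CTCF or REST and by 2.11 in the unmethylated class.

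The CpG with the largest fall was an intergenic CpG 7365 bases from Slc29a4, which encodes a transporter of monoamines, in a REST-bound LMR (chr5:143170690-143170691). Its levels were 25.1%, 25.6% and 24.1% after Cre and 72.0%, 80.1% and 65.8% in the mock, on 673 to 996 reads. The Cre replicates lay close together and far below the mock replicates, and the difference was -47.7 percentage points (log2 odds ratio -2.97, SE 0.58, adjusted p = 0.00727). It is the first capital CG of the sequence shown for this region. In the same amplicon, the CpG 157 bases farther had 9.47% ± 2.83 after Cre and 39.3% ± 11.6 in the mock and was also called (adjusted p = 0.0389), while the remaining 7 CpGs were between 3.21% and 15.7% in the mock and none was called.

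In an intron of Tssc1, a gene for a WD-repeat protein, the CpG at chr12:29516210-29516211 had 16.8%, 19.8% and 18.3% after Cre and 63.2%, 63.2% and 60.2% in the mock. On 4793 to 11819 reads, the groups were far apart and the fall of 43.9 percentage points had the smallest error of the 10 CpGs of largest fall (log2 odds ratio -2.91, SE 0.18, adjusted p = 9.44e-05). The other CpGs of the amplicon lie near the other end of the amplicon and had 4.69% and 9.93% in the mock, and the latter was also called, at 4.33% after Cre (adjusted p = 0.0376).

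The LMR near Col1a1 (nearest CpG 62897 bases away), which encodes a chain of type I collagen, held a pair of the largest falls. At chr11:94734426-94734427 the levels were 27.3%, 30.3% and 30.5% after Cre against 82.3%, 67.9% and 73.3% in the mock (adjusted p = 0.00454). At chr11:94734591-94734592 they were 11.7%, 32.8% and 34.0% against 75.7%, 71.8% and 58.6% (adjusted p = 0.0123), so Cre replicate 1 lay well below the other Cre replicates. Within this amplicon the relative loss, the share of the mock level that was missing after Cre, ranged from 1.01% at its first CpG to 69.3% among 14 CpGs.

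Of the other CpGs with the largest falls, chr3:65259526-65259527 near 4931440P22Rik went from 65.9% ± 7.95 in the mock to 24.1% ± 2.22 and chr14:20659404-20659405 in a CTCF-bound LMR near 2700060E02Rik from 75.5% ± 3.55 to 34.3% ± 2.81. In ES-specific LMRs, chr7:3349981-3349982 in an intron of Cacng7, a subunit gene of calcium channels, went from 48.8% ± 4.62 to 8.75% ± 2.18, a relative loss of 82.1% ± 4.47. The CpG chr3:9601635-9601636 in an intron of the zinc finger gene Zfp704 went from 51.2% ± 8.21 to 12.2% ± 6.86. Each of these 4 was called, with groups that did not overlap and adjusted p between 0.00084 and 0.00495.

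All 10 CpGs of largest fall lay lower at day 0 than in the mock of day 13, so their falls were smaller against the non-transduced cells. Near Slc29a4 the day 0 level was 56.7%, which makes a fall of 31.8 percentage points (log2 odds ratio -1.99), and the largest fall from day 0 was then the 34.5 percentage points of chr13:107863564-107863565 near 3830408C21Rik. In Tssc1 the day 0 level was 42.65%, and the log2 odds ratio of Cre over day 0 was -1.75. It was -1.66 at the first Col1a1 CpG (-2.88 over mock), -1.64 near 4931440P22Rik (-2.64 over mock) and -1.44 near 2700060E02Rik (-2.58 over mock). Of the 10 CpGs, 9 were also called against day 0, with adjusted p up to 0.0112, and the second Col1a1 CpG was not (log2 odds ratio -0.97, adjusted p = 0.164).

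The same fall in percentage points took different shares of the starting methylation. For the 224 CpGs that had 20% or more on day 0, the relative loss averaged 29.2%, and leaving out single replicates moved this value between 28.5% and 29.8%. Since the members of this set were taken by their day 0 level, neither the Cre nor the mock samples entered the choice. At 20 to 40% on day 0 the median relative loss was 59.4% (46 CpGs), and at 40 to 60% it was 52.4% (29 CpGs). It then decreased to 32.2% at 60 to 80% (40 CpGs), 20.0% at 80 to 90% (38 CpGs) and 5.25% above 90% (71 CpGs). Across these 224 CpGs the relative loss and the day 0 level had a Spearman correlation of -0.897 (Pearson -0.856), given as a description only, since neighbouring CpGs share reads and all share the 6 libraries. On the odds scale the medians were closer to each other. They were -1.65, -1.70, -1.87, -1.94 and -1.34 (log2 odds ratio) in the same order of bins, so the order of the bins depends on the scale.

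**Figure D3:**
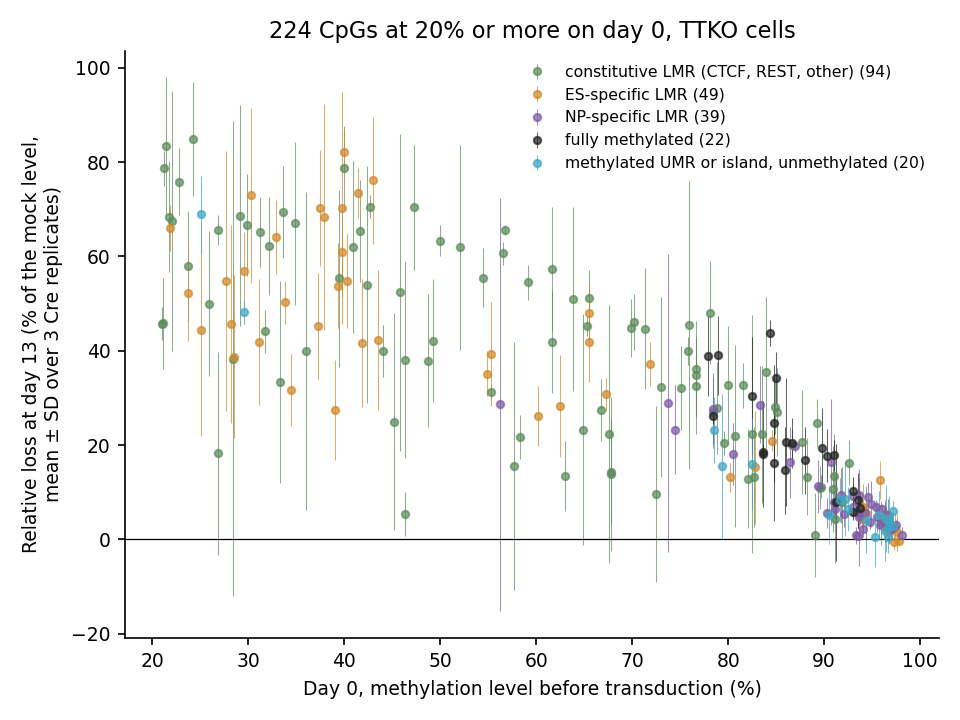
Relative loss at day 13 (percent of the mean mock level, mean and SD over 3 Cre replicates) against the methylation level of non-transduced TTKO cells at day 0, for 224 CpGs coloured by region class. Losses fall from a median of 59.4% at 20 to 40% methylation to 5.25% above 90%, and within a narrow range of day 0 levels they still spread widely.

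Within a bin the CpGs differed widely. Among the 29 CpGs at 40 to 60% on day 0, the relative loss ranged from 5.35% to 76.1%. The number of CpGs within 100 bases had a Spearman correlation of -0.143 with the relative loss and the GC content of 0.0531, over the same 224 CpGs. Among the CpGs above 90% at day 0 (n = 71) the correlation with CpG number was -0.469, among those at 60 to 90% (n = 78) it was 0.104, and among those at 20 to 60% (n = 75) it was -0.289. Pairs of CpGs of an amplicon at most 10 bases apart differed in relative loss by a median of 6.58 percentage points (61 pairs), and pairs more than 150 bases apart by 9.05 percentage points (109 pairs). Their day 0 levels differed alongside, by medians of 4.11 and 7.29 percentage points.

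The relative loss differed between classes, which also differed in their day 0 level. Over all CpGs of a class, that level was 33.2% at CTCF-bound, 19.3% at REST-bound and 61.5% at the other constitutive LMRs. It was 50.3% at ES-specific LMRs, 86.6% at fully methylated regions and 90.8% at NP-specific LMRs. The part of the day 0 level in the class differences was not tested. The class means were 49.6% ± 1.99 at CTCF-bound LMRs (12 CpGs), 39.7% ± 3.44 at REST-bound LMRs (29 CpGs), 37.1% ± 1.98 at the other constitutive LMRs (53 CpGs) and 36.1% ± 2.10 at ES-specific LMRs (49 CpGs; SD over 3 Cre replicates). With a coverage minimum of 1000 reads the values were 34.65% at REST-bound and 42.9% at the other constitutive LMRs, so the order of these classes turned. Without Zbtb20 the ES-specific LMRs had 47.8% ± 3.13 (36 CpGs), which moved them from the lowest of these 4 classes to near the CTCF-bound LMRs. In the classes with high methylation the means were 20.7% ± 2.65 at fully methylated regions (22 CpGs) and 9.29% ± 1.34 at NP-specific LMRs (39 CpGs). Against day 0 controls the relative loss was 46.5% at CTCF-bound, 37.3% at REST-bound and 33.5% at the other constitutive LMRs. It was then 33.5% at ES-specific LMRs with Zbtb20, 16.2% at fully methylated regions and 6.43% at NP-specific LMRs.

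The LMR near 3830408C21Rik had the widest range of relative losses of any amplicon with at least 4 CpGs in this set, from 14.3% to 84.8%. The third of its CpGs (chr13:107863509-107863510) fell from 30.6% ± 6.75 to 4.64% ± 3.71, while its last CpG (chr13:107863625-107863626) had 60.02% ± 8.07 in the mock and 51.4% ± 6.72 after Cre and was not called (adjusted p = 0.142). The fifth CpG (chr13:107863564-107863565) fell from 84.0% ± 5.09 to 43.7% ± 9.20. The CpGs of the CTCF-bound LMR near Ipcef1 differed as well. The third of its CpGs (chr10:3270090-3270091) had 89.995% ± 5.50 in the mock and 80.1% ± 4.05 after Cre and missed the threshold (adjusted p = 0.0503), whereas its first CpG, 55 bases away, fell from 24.3% ± 7.62 to 5.17% ± 0.900, a relative loss of 78.7%.

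**Figure D4:**
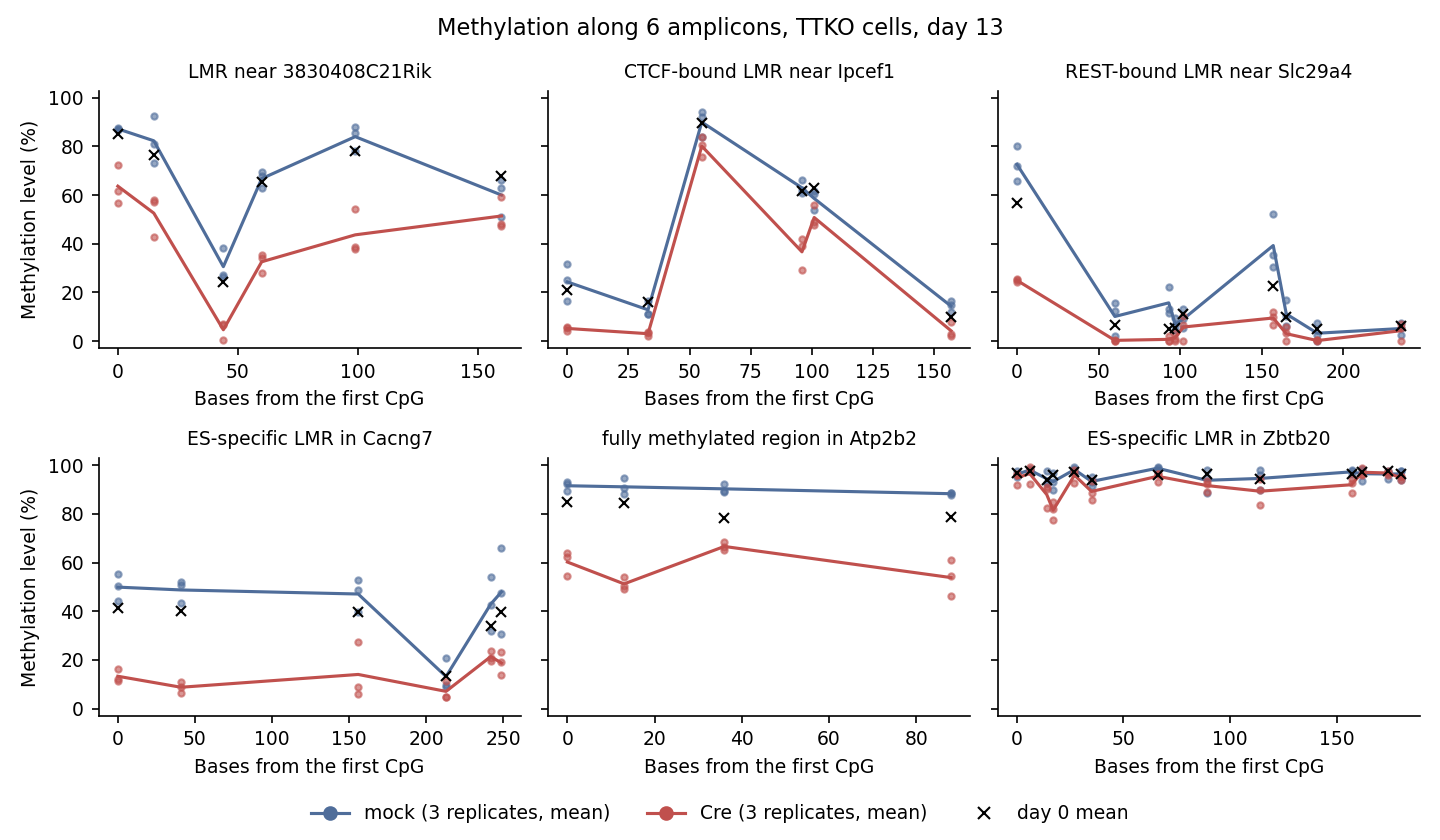
Methylation level (percent) of each CpG along 6 amplicons against the distance in bases from the first CpG, for 3 Cre and 3 mock replicates (points, with lines through the means) and the day 0 mean (crosses). Near 3830408C21Rik the dip of the mock at the third CpG is kept after Cre, but the drop from the fifth to the last CpG is not. The low ends of the Ipcef1 profile stay low after Cre, the Atp2b2 profile is lower at each of its 4 CpGs, and the Zbtb20 profile hardly moves.

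Among the fully methylated regions, the one in an intron of Atp2b2, a plasma membrane calcium pump, lost the most. Its 4 CpGs had means of 56.9%, 59.8% and 57.3% after Cre against 90.3%, 91.1% and 89.6% in the mock (log2 odds ratio -2.77, SE 0.18, adjusted p = 6.66e-05). All 4 CpGs were called, with relative losses from 26.2% to 43.8%. In Traf3, which encodes a signalling adaptor, the 2 CpGs of another fully methylated region had 87.6% ± 2.33 after Cre and 94.2% ± 4.67 in the mock and gave no call (adjusted p = 0.0815). A further amplicon in Traf3 (chr12:112492618-112492762) fell from 92.2% to 76.6%, and all 5 of its CpGs were called.

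The CpGs that kept the most methylation were in coding exons of Zbtb20, a transcriptional repressor, and AU022751, and in the NP-specific LMR 190002 bases from Irx4, an Iroquois homeobox gene. At chr16:43609816-43609817 in Zbtb20 the levels were 96.0%, 96.6% and 98.9% after Cre and 93.7%, 97.6% and 98.3% in the mock, so the groups overlapped. Over the 13 CpGs of this amplicon the mean was 92.6% ± 2.43 after Cre and 96.0% ± 1.54 in the mock (adjusted p = 0.0533), and 1 CpG, chr16:43609671-43609672, was called. The amplicon is listed as an ES-specific LMR, but it had a mean of 96.2% in TTKO cells at day 0. In wild-type mock cells of day 13, which have TET proteins, its CpGs also lay between 77.4% and 94.8%, which goes against that label. At chrX:5659221-5659222 in AU022751 the levels were 94.1%, 99.95% and 99.8% after Cre and 96.9%, 98.3% and 99.9% in the mock, so these groups overlapped too. The Irx4 amplicon had 94.4%, 93.1% and 93.0% after Cre and 95.6%, 98.0% and 96.9% in the mock, a small fall that was called (adjusted p = 0.0131). The CpG with the largest rise was chr4:153053456-153053457, near Ajap1, with 0.398%, 11.8% and 10.0% after Cre and 0.565%, 4.56% and 3.23% in the mock, which overlapped and gave no call (adjusted p = 0.234).

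Of the amplicons without a call, the largest difference was found where the replicates disagreed. The NP-specific LMR near the cell adhesion gene Cadm1 had 43.2%, 54.3% and 83.8% after Cre and 80.1%, 86.9% and 71.0% in the mock, so that Cre replicate 3 lay within the mock values (adjusted p = 0.474). Among unmethylated regions, the largest fall was 15836 bases from Dgcr6, from 10.9%, 12.3% and 6.73% in the mock to 3.18%, 3.26% and 3.96% (adjusted p = 0.014). It rested on 1 CpG, chr16:18037016-18037017, which went from 25.8% ± 6.39 to 8.01% ± 2.11. In the unmethylated region 8537 bases from Id3, which encodes an inhibitor of helix-loop-helix factors, 4 of 10 CpGs were called, and the first of them fell from 33.5% ± 4.33 to 17.4% ± 0.863. In the unmethylated class 12.2% of CpGs were called, and 33.7% of all CpGs.

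Both parts of the RE1 element, to which REST binds, were looked for in each amplicon, from 100 bases before its first to 100 bases after its last CpG and on both strands. The right part GGACAG was present in 18 of 18 REST amplicons and in 14 of the other 47 (29.8%), and the left part CAGCACC, which does not overlap it, in 8 of 18 and in 2 of the other 47 (4.26%). The core consensus of CTCF was found in 2 of 5 CTCF amplicons and in 1 of the other 60 (1.67%). The CTCF amplicons with a match lie near Sf3b5 and Apob, and the one near Ipcef1 had none. The matches are descriptions of the sequence and not measured binding. Near Slc29a4 both parts lie on the reverse strand, at chr5:143170762-143170767 and chr5:143170770-143170776, between the second and the third CpG measured. The 32 CpGs within 20 bases of GGACAG in REST amplicons had a mean of 8.79% ± 0.594 in the mock and 5.46% ± 0.396 after Cre, and 17 of them had under 5% in the mock. The 28 CpGs at 21 to 60 bases had 29.9% ± 1.52 and 19.5% ± 1.26, and the 38 CpGs farther away had 23.6% ± 0.695 and 12.1% ± 0.617 (SD, n = 3 samples). The numbers of called CpGs in the same order were 3, 7 and 11, and in all REST-bound LMRs 21.4% of CpGs were called. Single amplicons differed from these means. In Tssc1 the CpGs next to GGACAG had 4.69% and 9.93% in the mock, and the CpG with the large fall lies 119 bases away. Near Ajap1, in contrast, a CpG 9 bases from GGACAG had 80.2% in the mock and one 127 bases away had 1.29%, and near Otor a CpG 9 bases away had 38.0%.

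By annotation (GENCODE M1), 64 of 205 intergenic, 46 of 118 intronic and 25 of 67 coding CpGs were called (31.2%, 38.98% and 37.3%, near the 33.7% of all CpGs), and none of the 9 CpGs in UTRs and the 2 in other exons. Of the 79 CpGs within 1 kb of a transcription start site 9 were called, and their mean in the mock was 12.2%. Of the 322 farther away 126 were called, with a mean of 51.9% in the mock.

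Wild-type cells, the parental line with the same floxed Dnmt3a and Dnmt3b and with TET proteins, were treated alike, and 6 of their samples are Cre and mock replicates of day 13. Over the 381 CpGs with a level in all compared samples, the mock mean was 43.3% ± 0.714 in TTKO and 30.7% ± 0.302 in wild-type cells, and Cre minus mock came to -11.1 percentage points (SE 0.461) in TTKO and -8.70 (SE 0.536) in wild type. Relative to the mock mean these are losses of 25.7% in TTKO and 28.3% in wild type. In the NP-specific LMRs (36 CpGs) the difference was -7.37 percentage points (SE 1.13) in TTKO and -14.5 (SE 2.71) in wild type, and in the ES-specific LMRs (60 CpGs) it was -15.7 (SE 1.08) and -9.54 (SE 0.823). Relative to the mock mean, the NP-specific LMRs lost 7.77% in TTKO and 16.2% in wild type, and the ES-specific LMRs 29.6% and 31.1% (46.4% and 62.3% without Zbtb20). The constitutive LMRs assigned to neither CTCF nor REST (49 CpGs) changed by -24.2 percentage points (SE 0.702) in TTKO and -18.2 (SE 0.879) in wild type, which are 35.7% and 57.2% of the mock mean. In these classes of constitutive and ES-specific LMRs TTKO thus had the larger fall in percentage points and the smaller one relative to the mock.

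Whether the Cre effect of a CpG differed between the lines was tested with an interaction term. On the odds scale 2 of 397 CpGs passed (0.504%), and 29 had an unadjusted p under 0.05. Both lie in the NP-specific LMR 120281 bases from Gm10295. At chr7:78616660-78616661 the TTKO levels were 91.3%, 91.7% and 91.4% after Cre and 93.1%, 93.9% and 96.1% in the mock, while wild-type cells had 47.7%, 55.2% and 53.4% after Cre and 88.0%, 89.7% and 92.0% in the mock (interaction log2 odds ratio 2.34, SE 0.41, adjusted p = 0.0251). The wild-type groups were far apart and the TTKO groups close together. At chr7:78616652-78616653 the means were 87.1% and 93.1% in TTKO and 25.4% and 76.0% in wild type (interaction log2 odds ratio 2.24, SE 0.40, adjusted p = 0.0251). The third CpG in this order, in Tssc1, did not pass (adjusted p = 0.0778). The number of calls was 0 without Cre replicate 1 or 2 or mock replicate 1 or 2 of TTKO, and 0 with limma on log2 odds.

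On the scale of levels (limma), the interaction passed at 47 of 397 CpGs (11.8%). Of these, 32 fell more in TTKO and 15 fell more in wild type. The 32 CpGs had mock means of 55.4% in TTKO and 16.8% in wild type, and their mean change was -30.0 percentage points in TTKO and -8.81 in wild type. The 15 CpGs had mock means of 89.9% and 75.0%, and changed by -7.11 and -30.5 percentage points. The most calls were in the constitutive LMRs assigned to neither CTCF nor REST (17 of 59 CpGs), where 12 fell more in TTKO and 5 more in wild type. All 10 called of 60 CpGs in ES-specific LMRs fell more in TTKO, 6 of them in the Zfp704 amplicon and 3 in the Cacng7 amplicon. All 9 called of 39 CpGs in NP-specific LMRs fell more in wild type, 4 near Irx4, 4 near Gm10295 and 1 in Aff3. The mock levels moved with this split, and their part in it was not tested.

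**Figure D5:**
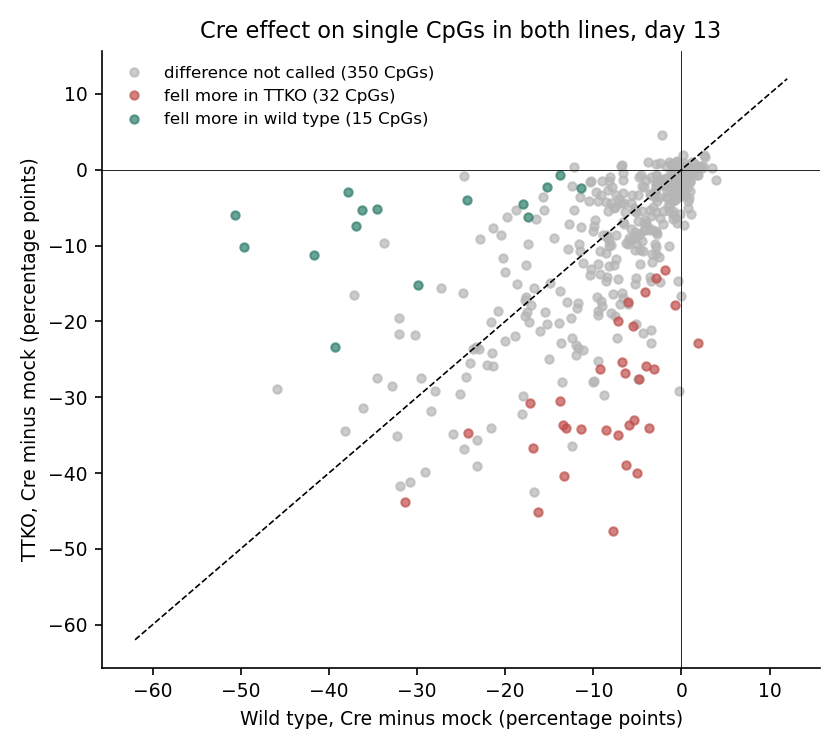
Cre minus mock at day 13 (percentage points, difference of the means of 3 replicates) for 397 CpGs, wild type on the horizontal and TTKO on the vertical axis, with the dashed line at equal changes. Colours mark the 32 CpGs that fell more in TTKO and the 15 that fell more in wild type on the scale of levels, and the latter lie at TTKO changes from -0.70 to -23.3 percentage points, with wild-type falls of up to 50.6.

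The neighbouring time points of the TTKO course have their own Cre and mock samples. Over the same 381 CpGs, Cre minus mock came to -8.38 percentage points (SE 0.384) at day 10, -11.1 (SE 0.461) at day 13 and -13.6 (SE 0.575) at day 17. The number of CpGs called less methylated did not follow this order, with 172 of 393 at day 10, 135 of 401 at day 13 and 217 of 395 at day 17. No single CpG passed the test of a different Cre effect at day 13 and day 10 (0 of 389, 0.0%, lowest adjusted p = 0.252, 35 at an unadjusted p under 0.05, 0 with limma) or at day 13 and day 17 (0 of 391, 0.0%, lowest adjusted p = 0.336, 28 at an unadjusted p under 0.05, 0 with limma). The fully methylated regions (18 CpGs) had differences of -10.1 (SE 0.514), -18.5 (SE 1.67) and -24.2 (SE 0.937) percentage points in that order, and the ES-specific LMRs -13.2 (SE 0.832), -15.7 (SE 1.08) and -18.9 (SE 1.28).

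A second assay, SureSelect capture followed by bisulfite sequencing, covered 255 of the 401 CpGs in TTKO cells, as a single column per time point with joined replicates and without a mock. At these CpGs the captured level was 27.0% at day 0 and 18.8% at day 13, against 31.2% and 22.0% in the amplicons, and 223 CpGs were lower at day 13 than at day 0 by capture. The levels of day 13 correlated across the CpGs with r = 0.983, where both assays share the CpGs but not the libraries, and the median capture coverage was 281 reads. Single CpGs named above differed more between the assays, in both directions. The CpG of largest fall near Slc29a4 went from 45.9% to 27.7% by capture and from 56.7% to 25.0% in the amplicons. In Atp2b2, chr6:113705572-113705573 went from 75.8% to 67.9% by capture and from 85.0% to 60.2% in the amplicons, and chr6:113705585-113705586 from 75.8% to 58.5% and from 84.4% to 51.2%. The day 13 coverage by capture was 106 to 188 reads at these 3 CpGs, with no replicates. The fall from day 0 was larger by capture at chrX:5659176-5659177 in AU022751, from 95.3% to 82.2% against 95.3% to 92.7% in the amplicons. Near 2700060E02Rik (chr14:20659404-20659405) the falls were close, from 56.9% to 30.7% by capture and from 59.2% to 34.3% in the amplicons. The day 13 coverage by capture was 129 and 205 reads at these CpGs in that order, without replicates.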

How the data were processed

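Methylation was measured in mouse embryonic stem cells by amplicon bisulfite sequencing, and the labels gave the groups, days and replicates. After bisulfite conversion and PCR of 88 regions, the authors sequenced 250-base read pairs on a MiSeq, trimmed the last 100 bases, aligned to mm9 with Rbowtie in QuasR and called methylation with AmpliconBiSeq. The deposited coverage is a count of reads per CpG, and the deposited level is the fraction of these reads called methylated, with no level where the authors found fewer than 100 reads. The authors deposited SureSelect levels as percent, with coverage as counts and replicates joined. Tool versions are not given in the sources used here. For their rate estimates the authors scaled the wild-type Cre course to its mock, in which they saw a slight rise early in the course. The deposited wild-type levels still give whole reads and were used unscaled here, against the mock of the same day.

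Here, coverage times level gave whole methylated reads for 100.0% of the values. CpGs and summed amplicons were tested, two-sided, in R 4.3.3 with a logistic model whose quasi-binomial dispersion was at least 1 and moderated by squeezeVar of limma 3.58.1, after adding 0.5 to both counts, and with Benjamini-Hochberg adjustment over all CpGs or amplicons tested. Interactions used the same model. Means were compared with exact permutation tests (scipy 1.17.1). The model was tested on simulated data, with 0 and 1 false calls at log2 odds ratios of -1 and -2. There each CpG was drawn on its own with a common overdispersion (0.0179). The measured CpGs share reads and differ in dispersion, so these counts do not give the rate of false calls in the data. Genes were taken from GENCODE M1, as the gene a CpG lies in or the nearest protein-coding gene, and all 405 positions are CG in the mm9 sequence (NCBIM37). The genes named are those of the 10 called CpGs of largest fall with separated groups (at most 2 per amplicon). The same limit held for the 6 of smallest relative loss among CpGs at 50% or more at day 0. Further genes are those of the CpG with the largest rise, of the 3 CpGs of smallest interaction p and of the amplicon of widest spread. The amplicons of largest and smallest relative loss per class were taken among those of 2 or more CpGs with a mean of at least 20% at day 0. For the unmethylated class the amplicon of largest fall in level was taken. Not every gene chosen in this way is named. The CpGs near Id3 and Otor, the amplicons without a call, the second Traf3 amplicon, the motifs and their distance classes were chosen after their values were seen. The comparison, its rules and the groups of CpGs were chosen with earlier results of these data known. Alternatives were each replicate left out, a coverage minimum of 1000 reads, day 0 controls, the replicate number as a block, limma on log2 odds or on levels, a dispersion from all 39 TTKO samples and 5 reads added.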

Additional observations from a re-analysis of the deposited data

Results flagged for a closer look

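The Cre effect differed between TTKO and wild-type cells at 2 neighbouring CpGs near Gm10295, by the interaction term of the quasi-binomial model with Benjamini-Hochberg adjustment. The interaction log2 odds ratio, TTKO minus wild type, was 2.34 at chr7:78616660-78616661 and 2.24 at chr7:78616652-78616653, because the levels fell by 37.8 and 50.6 percentage points in wild type and by 2.88 and 5.97 in TTKO. Neither CpG was called without Cre replicate 1 or 2 or mock replicate 1 or 2 of TTKO, with the replicate block or with limma on log2 odds (0 CpGs in each). On the scale of levels 47 CpGs differed between the lines by the interaction term of limma, which include both of these CpGs.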

How the results depend on the processing

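The mean difference of -11.2 percentage points kept its direction under every alternative run, between -12.3 with each amplicon weighted alike and -9.05 against non-transduced day 0 controls. The number of CpGs less methylated after Cre was 88 to 121 with single replicates left out (88 without Cre replicate 2), 110 with limma and 188 with a dispersion from all 39 TTKO samples, and no CpG was called more methylated under any of them. Amplicons called less methylated numbered 41 to 45 with single replicates left out, 38 of 49 at a coverage minimum of 1000 reads and 38 to 54 over all alternatives. The labels do not say whether same-numbered Cre and mock replicates were paired. Their deviations from the group means correlated with r = 0.0836, 0.0472 and -0.0672, and those of differently numbered replicates with -0.117 to 0.0785. Deviations from means of 3 replicates cannot decide on a pairing. With the replicate block the count was 126 CpGs.

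CpGs that differed between TTKO and wild type numbered 0 to 3 with single TTKO replicates left out, 0 with the replicate block, 0 with limma on log2 odds and 47 with limma on levels. The cause was not tested. The relative loss of 29.2% was 26.1% against day 0 controls, which lie below the mock, and 18.6% over the 160 CpGs at 50% or more at day 0, which leaves out the CpGs of largest relative loss.

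Named CpGs without a call turned in direction under some alternatives and were not called there either. Against day 0 controls the log2 odds ratio was -0.52 at chr16:43609828 in Zbtb20, 0.70 at chrX:5659221 in AU022751, and 0.64 and 0.77 at the CpGs near Irx4, and with limma it was 1.24 at chrX:5659221. With single replicates left out it ranged from -0.44 to 0.81 and from -0.31 to 0.49 in Zbtb20, from -1.27 to 3.89 and from -2.34 to 0.90 in AU022751, and from -0.76 to 0.19 at the second Irx4 CpG. The second Col1a1 CpG was not called against day 0 controls (-0.97).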
